A study of Mus musculus with 8 samples.

Results

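The 10 genes described here encode cytokines that T cells make: *Il2*, *Ifng*, *Tnf*, *Csf2*, *Lta*, *Ltb*, *Il10*, *Il21*, *Il3* and *Il16*. They were chosen by symbol, with earlier results of these data known, and all 10 were found among the 48321 gene symbols of the count tables. RNA was sequenced from splenic CD8+ T cells, the cytotoxic lineage of T lymphocytes, of C57BL/6 mice. The series names floxed *Satb1* alleles (Satb1 F/F) and E8I-cre, a Cre recombinase transgene expressed in the CD8 lineage. *Satb1* encodes a chromatin organiser abundant in thymocytes. The 4 groups, of 2 libraries each, were WT at day 0, KO at day 0, WT at day 5 and KO at day 5, where day 5 cells had been cultured in vitro. Which alleles or Cre the WT mice carried, their age, and any stimulus in the culture are not given in the sources used here.

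A CD8+ T cell that meets its antigen switches on cytokine genes within hours and switches most of them off again when the signal from its receptor ends. Interferon gamma, tumour necrosis factor and lymphotoxin alpha are the main cytokines of cytotoxic cells. Interleukin 2 drives T-cell growth and is made chiefly by recently stimulated cells. Interleukin 10 dampens inflammation, and interleukin 16 is cut from a precursor that resting lymphocytes already hold.

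The promoters of 4 of the genes are shown because *Lta* and *Tnf* rose together in culture and *Il2* and *Ifng* differed between the genotype labels. They are RefSeq sequences of build GRCm38.p6, 250 bases up to the start of transcription, written 5′ to 3′ on the gene's own strand. Capitals mark matches, on either strand, to 2 short motifs, the NFAT core GGAAA and the TATA box TATAAA.
Il2 (chr3:37125955-37126204, minus strand): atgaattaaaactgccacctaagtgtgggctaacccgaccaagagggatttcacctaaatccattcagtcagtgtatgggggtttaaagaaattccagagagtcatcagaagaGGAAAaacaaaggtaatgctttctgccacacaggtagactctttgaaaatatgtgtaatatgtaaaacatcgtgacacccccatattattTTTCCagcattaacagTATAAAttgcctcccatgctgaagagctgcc
Ifng (chr10:118440796-118441045, plus strand): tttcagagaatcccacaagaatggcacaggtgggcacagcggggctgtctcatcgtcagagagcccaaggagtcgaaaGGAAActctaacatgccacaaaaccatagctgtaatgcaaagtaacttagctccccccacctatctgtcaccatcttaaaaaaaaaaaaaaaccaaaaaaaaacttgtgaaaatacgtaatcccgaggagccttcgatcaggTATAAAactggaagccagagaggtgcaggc
Tnf (chr17:35202008-35202257, minus strand): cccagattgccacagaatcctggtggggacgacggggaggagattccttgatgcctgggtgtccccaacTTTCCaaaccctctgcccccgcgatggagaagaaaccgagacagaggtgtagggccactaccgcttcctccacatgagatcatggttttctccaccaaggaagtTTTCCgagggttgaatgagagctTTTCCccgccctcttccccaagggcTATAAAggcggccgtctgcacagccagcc
Lta (chr17:35205352-35205601, minus strand): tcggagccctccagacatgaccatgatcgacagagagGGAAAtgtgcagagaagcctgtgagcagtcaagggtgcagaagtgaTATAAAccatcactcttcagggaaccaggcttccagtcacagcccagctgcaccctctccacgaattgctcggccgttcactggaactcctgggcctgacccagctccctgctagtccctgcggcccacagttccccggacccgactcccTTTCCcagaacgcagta

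A TATA box began 31 bases before the start of *Il2*, 30 before that of *Ifng* and 29 before that of *Tnf*, and 167 bases before that of *Lta*. Of 32841 promoters of this length, 12.4% held those letters and 55.6% held the NFAT core, which matched 2 times in *Il2*, 1 time in *Ifng*, 3 times in *Tnf* and 2 times in *Lta*. NFAT is the factor that calcium signals from the T-cell receptor bring into the nucleus. The AP-1 letters TGANTCA (in 6.75% of promoters) and the kappaB letters GGGA and CC with 4 bases of any kind between them (in 17.6%) had no match in the 4 windows. A match is a description of the letters, not of a bound site. The table held promoters of 9 of the 10 genes, without *Il10*.

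Counts assigned to genes came to between 4170126 and 11117971 per library, so that 1 count was worth between 0.0858 and 0.241 CPM (counts for each 1000000 counts assigned to genes, after scaling). Replicates of a group differed by more than sampling noise. Nothing states that they came from separate mice, so p-values measure the spread between these samples, which may be technical. The targeted gene, *Satb1*, was at 97.8 and 91.6 CPM in WT and at 144 and 125 CPM in KO at day 0, and so not lower in KO. At day 5 it was at 96.5 and 116 CPM in WT and 56.5 and 62.3 CPM in KO. Counts summed over a gene do not show whether a floxed exon was lost. The KO groups are therefore called the KO-labelled libraries. Summed over 5 genes, CD8 T-cell markers lay between 6160 and 10680 CPM in the 8 libraries, and NK cell markers (4 genes) between 0.552 and 2.15 CPM. In such bulk samples, fewer cells of a type and less RNA per cell cannot be told apart.

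Of the 10 cytokine genes, 6 passed the filter on low counts (*Il2*, *Ifng*, *Tnf*, *Lta*, *Il10* and *Il16*) and entered the edgeR fit with the other genes, 12597 in all. *Ifng* and *Il10* passed only through the day 5 libraries and *Il2* only through the KO-labelled libraries, in which they were high. FDR below means the Benjamini-Hochberg adjusted p of the edgeR quasi-likelihood test over all 12597 genes, and a gene with FDR under 0.05 is said to be called. Counts of cytokines called are descriptions for that reason, and stand beside the share of all genes called. Groups are said not to overlap where both libraries of 1 lay above both of the other. The share of all genes that separate so was not counted, and these statements are descriptions. *Satb1* was called between the labels in 0 of 18 alternative settings at day 0 (log2 fold changes of 0.34 to 0.64). At day 5 it was called in 15 of 18 (-0.96 to -0.70).

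**Figure D1:**
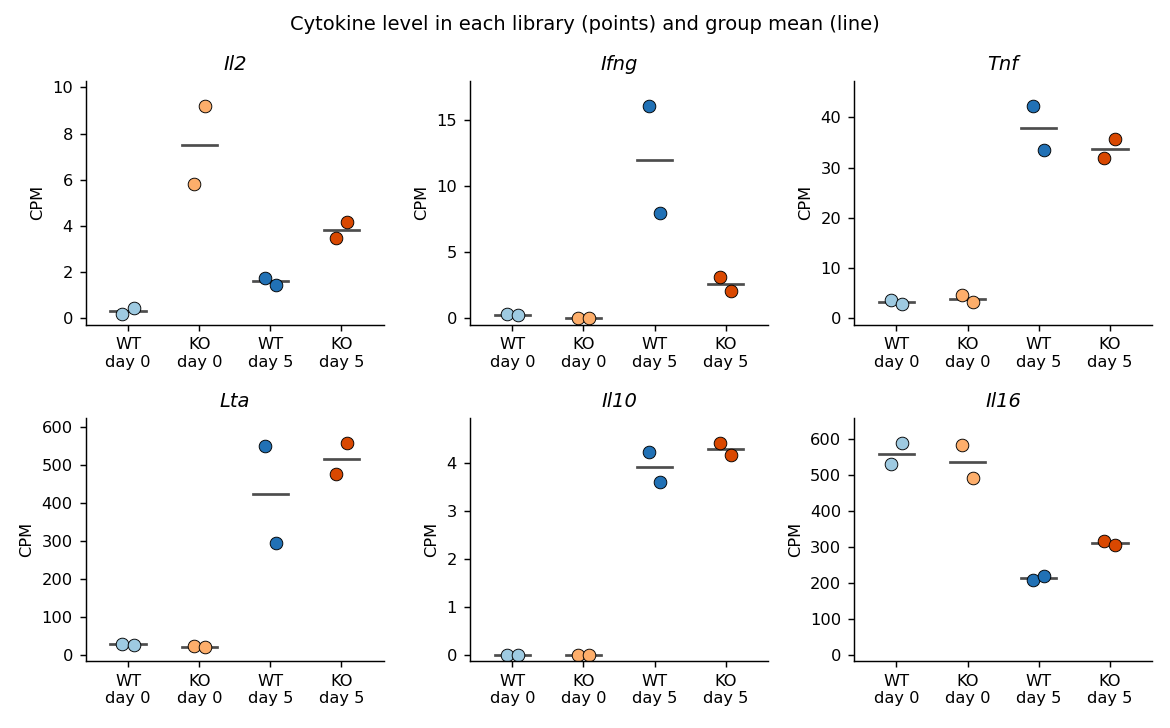
Level of the 6 tested cytokine genes in CPM (linear axis, a separate scale for each gene). Each point is a library, 2 per group, and the line is the group mean. *Tnf*, *Lta* and *Il10* rose at day 5 under both labels, *Il16* fell, *Il2* was highest in the KO day 0 libraries at 5.83 and 9.18 CPM, and *Ifng* was highest in the WT day 5 libraries at 16.1 and 7.95 CPM.

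In uncultured cells most reads of the 10 genes came from *Il16*, which also has more exon bases than *Lta*. It held between 93.5% and 94.8% of the counts of the 10 genes in the 4 day 0 libraries, and *Lta* held between 3.80% and 5.11%. After culture *Lta* held between 52.7% and 66.8% and *Il16* between 25.3% and 38.9%. The 10 genes together came to between 524 and 620 CPM at day 0, and to 826 and 563 CPM in WT and 835 and 909 CPM in the KO-labelled libraries at day 5.

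Ranked per kilobase of exon (CPM per kb), the order in WT at day 0 was *Il16* at 71.0, *Lta* at 20.1, *Tnf* at 1.99 and *Ltb* at 0.978 CPM per kb, each apart from the next in both libraries. The remaining 6 lay at or below 0.276 CPM per kb with overlapping replicates. In the KO-labelled libraries at day 0, *Il2* ranked next after *Lta* at 6.56 CPM per kb, above *Tnf* at 2.40 CPM per kb, without overlap.

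At day 5 the order began with *Lta*, *Il16* and *Tnf* under both labels. Levels of *Lta* were 306 CPM per kb in WT and 374 CPM per kb in the KO-labelled libraries. The fourth place was taken by *Ifng* in WT (9.27 CPM per kb). Among the KO-labelled libraries *Il2* (3.35 CPM per kb) and *Il10* (3.28 CPM per kb) came next, overlapping each other, and *Ifng* followed at 2.01 CPM per kb. Comparisons between genes on this scale assume that the annotated exons are the ones expressed.

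**Figure D2:**
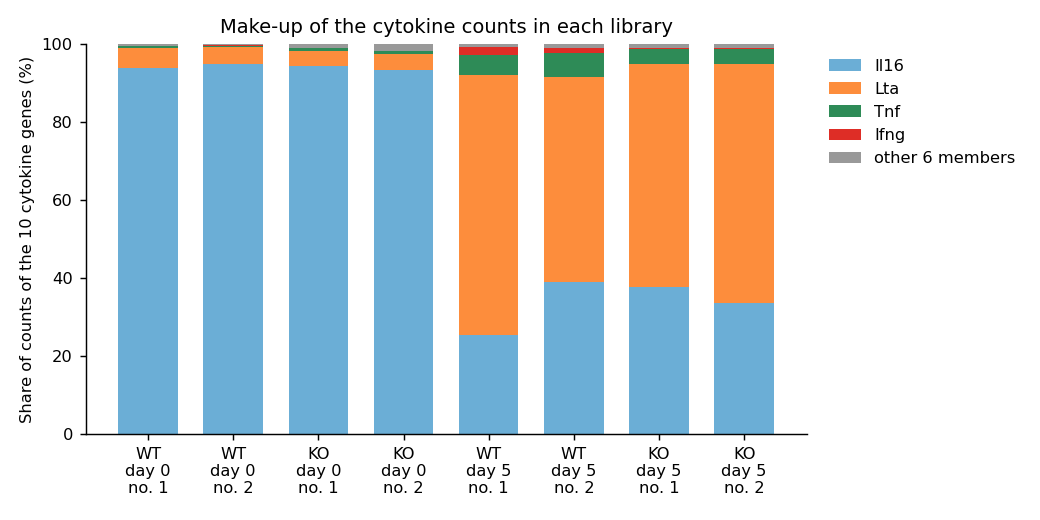
Share of the counts of the 10 cytokine genes (percent, 0 to 100) taken by each gene in each of the 8 libraries; the grey part sums *Il2*, *Csf2*, *Ltb*, *Il10*, *Il21* and *Il3*. *Il16* fills 93.5% to 94.8% of every day 0 bar, and *Lta* 52.7% to 66.8% of every day 5 bar.

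The first question was how the cytokine genes responded to 5 days of culture. *Lta*, which encodes lymphotoxin alpha (chromosome 17, 35203165 to 35205351, minus strand, GRCm38), was at 28.8 and 26.9 CPM in WT and 23.4 and 21.1 CPM in the KO-labelled libraries at day 0. At day 5 it was at 552 and 296 CPM in WT and at 476 and 558 CPM in the KO-labelled libraries. All 4 day 5 libraries lay above all 4 day 0 libraries, and the WT day 5 pair differed from each other the most. *Lta* rose by 3.93 on the log2 scale in WT (SE 0.26, edgeR FDR 8.98e-08) and by 4.53 in the KO-labelled libraries (SE 0.26, FDR 2.21e-08).

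Beside it on chromosome 17 lies *Tnf* (35199381 to 35202007, minus strand), which encodes tumour necrosis factor. Its levels were 3.58 and 2.94 CPM in WT and 4.55 and 3.30 CPM in the KO-labelled libraries at day 0, and 42.15 and 33.5 CPM in WT and 31.8 and 35.6 CPM in the KO-labelled libraries at day 5. The days did not overlap, and within each day the labels did. *Tnf* rose by 3.52 on the log2 scale in WT (SE 0.27, edgeR FDR 4.14e-07) and by 3.05 in the KO-labelled libraries (SE 0.25, FDR 6.06e-07).

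*Ifng*, which encodes interferon gamma (chromosome 10, 118441046 to 118445892, plus strand), had 2 and 1 counts in WT and 0 and 0 in the KO-labelled libraries at day 0. At day 5 it had 91 and 33 counts in WT (16.1 and 7.95 CPM) and 17 and 11 in the KO-labelled libraries (3.13 and 2.08 CPM). It was close to the limit of detection in every day 0 library and above it in every day 5 library. In WT the summed counts rose 42.2-fold, with a 95% exact Poisson interval of 14.1 to 207 that covers counting error only (edgeR FDR 5.52e-05). For the KO-labelled libraries the rise was at least 14.8-fold, computed against 3 counts over the day 0 group, which is the limit that a count of 0 allows (FDR 0.000296).

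*Il10*, which encodes an anti-inflammatory cytokine (chromosome 1, 131019845 to 131024974, plus strand), had no count in any of the 4 day 0 libraries. At day 5 it had 24 and 15 counts in WT (4.23 and 3.62 CPM) and 24 and 22 in the KO-labelled libraries (4.42 and 4.17 CPM). The rise was thus seen in all 4 cultured libraries, which held similar amounts. It was at least 13.1-fold in WT (edgeR FDR 0.000387) and at least 24.5-fold in the KO-labelled libraries (FDR 0.000107), against 3 counts over the day 0 group.

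*Il16*, whose product is cut to release a chemoattractant for T cells (chromosome 7, 83642825 to 83745726, minus strand), moved the other way. Its levels were 529 and 587 CPM in WT and 582 and 489.8 CPM in the KO-labelled libraries at day 0, and 209 and 219 CPM in WT and 315 and 304 CPM in the KO-labelled libraries at day 5. Every cultured library lay below every day 0 library, and at day 5 both KO-labelled libraries lay above both WT libraries. *Il16* fell by 1.38 on the log2 scale in WT (SE 0.13, edgeR FDR 2.05e-06) and by 0.79 in the KO-labelled libraries (SE 0.12, FDR 0.000185). Of its exon length, 17.4% lies within exons of genes on the other strand (*2310044K18Rik* and *Stard5*), and without a stated strand setting those reads cannot be told apart.

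*Il2*, which encodes the T-cell growth factor interleukin 2 (chromosome 3, 37120523 to 37125959, minus strand), responded in opposite directions under the 2 labels. It had 1 and 2 counts in WT at day 0 (0.179 and 0.452 CPM) and 10 and 6 at day 5 (1.76 and 1.45 CPM). The KO-labelled libraries had 68 and 50 counts at day 0 (5.83 and 9.18 CPM) and 19 and 22 at day 5 (3.50 and 4.17 CPM). Both WT libraries were higher after culture and both KO-labelled libraries were lower, with no overlap in either case.

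In WT the summed *Il2* counts rose 5.44-fold (95% counting interval 1.56 to 29.1), and the gene was called (log2 fold change 2.35, SE 0.75, edgeR FDR 0.021). Without WT day 0 replicate 2 the log2 fold change was 3.05. That call was kept in 12 of 17 alternatives. It was lost without WT day 0 replicate 1 (FDR 0.140), without WT day 5 replicate 1 (FDR 0.0858), with DESeq2 (FDR 0.0527), and with the correction for GC content and exon length, alone (FDR 0.0636) or with the replicate block (FDR 0.0632). The log2 fold change of *Il2* in the KO-labelled libraries was -0.94 (SE 0.40) and was not called (edgeR FDR 0.0695). Scaling by library totals alone moved it to -1.13 (edgeR FDR 0.0342), on the called side, and it was also called with the edgeR 4 form (FDR 0.0443) and with the correction for GC content and exon length, alone (FDR 0.0318) or with the replicate block (FDR 0.0333), so in 4 of 18 alternatives. The difference between the 2 responses, tested as the genotype by day interaction, was -3.29 on the log2 scale (SE 0.85) and did not pass the threshold (edgeR FDR 0.161).

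In WT, 6 of the 6 tested cytokine genes were called, 5 higher and 1 lower, where 48.3% of all tested genes were called. In the KO-labelled libraries, 5 were called, 4 higher and 1 lower, against 50.2% of all genes. With close to that share of the transcriptome called, being called says little about a gene, and the size of the change says more. Scaling by library totals alone moved the median of the log2 fold changes over all genes from -0.04 to -0.17 in WT and from -0.05 to -0.23 in the KO-labelled libraries. It also changed the calls in the KO-labelled libraries from 3296 higher and 3029 lower to 2755 higher and 3936 lower. The directions of the 6 genes in culture were the same under that scaling.

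Cell type markers moved in culture too. The summed CD8 T-cell markers went from between 9809 and 10680 CPM to between 6160 and 6411 CPM in WT, and from between 9521 and 9629 CPM to between 6858 and 6871 CPM in the KO-labelled libraries. Among them *Cd8b1* (log2 fold change -1.64 in WT and -1.36 in the KO-labelled libraries) and *Cd3e* (-0.91 and -0.70) were called lower under both labels, and *Cd8a* in WT (-0.87) but not in the KO-labelled libraries (-0.21, edgeR FDR 0.112). *Cd3d* (0.02 and 0.04) and *Cd3g* (-0.14 and -0.05) were not called. Of the CD4 T-cell markers *Cd40lg* was called lower under both labels, from 9 and 5 to 1 and 1 counts in WT. In the KO-labelled libraries, in which *Il2* was also lower after culture, it went from 66 and 21 to 2 and 4 counts (-3.06, edgeR FDR 0.000989). *Cd40lg* passed the filter on low counts only through the KO day 0 libraries, so its height there and its fall from it were partly fixed. Its WT call (-2.65, edgeR FDR 0.0244) was kept in 13 of 17 alternatives. It was lost with DESeq2 (FDR 0.0934) and without WT day 0 replicate 1 or either WT day 5 library. The myeloid markers (5 genes) went in sum from at most 21.9 CPM to between 34.8 and 73.6 CPM over both labels, where *Cd68*, which holds most of the sum at day 5, was called higher (3.53 and 4.09, the second being 3.49 without KO day 0 replicate 1), *Itgam* lower in WT (-2.98) and *Csf1r* lower under both labels (-1.19 and -1.18), though the *Csf1r* calls were lost in at least 2 alternatives under each label (edgeR FDR up to 0.148 without WT day 0 replicate 2 and 0.118 without KO day 5 replicate 1).

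Of the gamma delta T-cell markers, *Tcrg-C1* (5.68 and 3.95), *Tcrg-C2* (5.74 and 3.89) and *Tcrg-C4* (2.87, or 2.28 with the correction for GC content and exon length, and 1.15) were called higher and *Trdc* (-0.90 and -1.64) lower. The *Trdc* call in WT was lost without WT day 0 replicate 2 (edgeR FDR 0.163) or WT day 5 replicate 1 (0.14). *Cd79b* was called lower among the B-cell markers (-0.83 and -0.90). The mast cell markers (4 genes) summed to between 2.57 and 4.11 CPM at day 0 and to at most 0.568 CPM at day 5. *Itgam* passed the filter on low counts only through day 0 libraries, so its fall was partly fixed. The dendritic cell markers (4 genes) summed to 11.1 to 13.8 CPM in WT and 10.8 to 14.3 CPM in the KO-labelled libraries at day 0. At day 5 the sums were 5.64 to 7.47 and 6.25 to 6.44 CPM. Of these *Zbtb46* was called lower in the KO-labelled libraries (-0.93, edgeR FDR 0.0398), a call kept in 10 of 18 alternatives, but not in WT. The part of these cells in the cytokine changes was not tested.

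**Figure D3:**
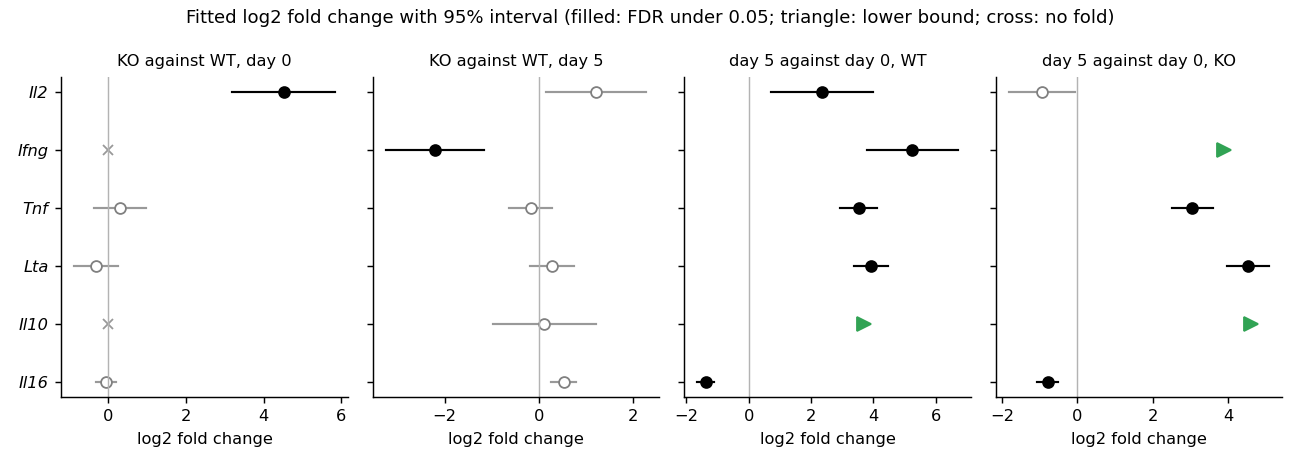
Log2 fold change of the 6 tested cytokine genes in the 4 comparisons of groups (horizontal axis, a separate scale for each panel), with 95% intervals from the edgeR fit. Filled points were called at FDR under 0.05, open points were not, triangles are lower bounds against 3 counts over a group at 0, and crosses mark genes with both groups at or under that limit. *Il2* at day 0 (4.52) and *Ifng* at day 5 (-2.21) are the filled points between the genotype labels.

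The second question was whether the genotype label changed cytokine transcripts before culture. *Il2* was higher in the KO-labelled libraries, with 68 and 50 counts against 1 and 2 in WT. The summed counts were 23.0-fold higher, with a 95% counting interval of 7.69 to 113, and the log2 fold change was 4.52 (SE 0.61, edgeR FDR 0.00236). *Il2* was the 1 tested cytokine gene called at day 0, and 1.80% of all tested genes were called. It passed the filter on low counts only through the KO-labelled libraries, so a difference in that direction was partly fixed. Across 18 alternative settings the log2 fold change lay between 3.96 and 5.21, and the call was lost in 1, without WT day 0 replicate 1 (FDR 0.0742).

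Even where it was highest, *Il2* was a minor transcript, at 7.50 ± 2.36 CPM (SD, n = 2). Some markers of other T cells were also higher there. The CD4 T-cell markers (3 genes) summed to 3.58 and 1.36 CPM in WT and to between 6.06 and 6.26 CPM in the KO-labelled libraries at day 0. Of these, *Cd40lg*, the CD40 ligand, had 9 and 5 counts in WT and 66 and 21 in the KO-labelled libraries (log2 fold change 1.79, SE 0.52, not called at an edgeR FDR of 0.134), and *Cd4* itself had 0 and 1 against 7 and 5 counts. The third, *Zbtb7b*, had 11 and 0 counts in WT and 0 and 7 in the KO-labelled libraries (-1.13, edgeR FDR 0.79).

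The gamma delta T-cell markers (5 genes) summed to between 62.3 and 94.1 CPM in WT and to between 159 and 161 CPM in the KO-labelled libraries at day 0, and 3 of them, *Tcrg-C1*, *Tcrg-C2* and *Tcrg-C4*, were called higher. Reads shared by these related genes may be split between copies. The call of *Tcrg-C1* was kept in 13 of 18 alternatives and lost with the edgeR 4 form (FDR 0.069), with the 4 libraries alone (0.105), and without WT day 0 replicate 1 (0.254), WT day 0 replicate 2 (0.208) or KO day 0 replicate 2 (0.0709). *Trdc*, the constant part of the delta chain, was at 67.6 ± 20.2 CPM in WT and 79.1 ± 2.57 CPM in the KO-labelled libraries (SD, n = 2 each, log2 fold change 0.23, not called at an edgeR FDR of 0.763), and *Sox13* had 3 counts in WT and 10 in the KO-labelled libraries. The B-cell markers (5 genes) summed to between 123 and 125 CPM in WT and to between 144 and 167 CPM in the KO-labelled libraries. Almost all of that sum was *Cd79b* (120 ± 2.89 and 153 ± 15.9 CPM, SD, n = 2 each), which was not called (0.34, edgeR FDR 0.262), and *Cd79a* was at 1.67 CPM in WT and 1.23 CPM in the KO-labelled libraries. The part of these cells in the *Il2* counts was not tested.

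The other cytokine genes gave no call between the labels at day 0. *Tnf* (log2 fold change 0.30, 95% interval -0.38 to 0.98), *Lta* (-0.32, interval -0.88 to 0.25) and *Il16* (-0.06, interval -0.32 to 0.21) had FDR values of 0.759, 0.67 and 0.895 in edgeR. *Lta* was lower in both KO-labelled libraries than in both WT libraries. For *Ifng* and *Il10* both groups were at or under 3 counts, and no fold is given. The intervals exclude a change of *Il16* as large as the one it underwent in culture under either label.

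The third question was whether the label changed the cultured cells. *Ifng* fell in the KO-labelled libraries, from 12.0 ± 5.73 CPM in WT to 2.60 ± 0.738 CPM (SD, n = 2 each), with both libraries below both WT libraries. The WT pair differed from each other by 91 to 33 counts. The log2 fold change was -2.21 (SE 0.47, edgeR FDR 0.0429), and 4.83 times fewer counts were assigned than in WT after scaling (95% counting interval 3.19 to 7.57). *Ifng* was the 1 tested cytokine gene called at day 5, against 1.63% of all tested genes.

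The *Ifng* call lay near the threshold, while its direction did not change in 18 alternative settings (log2 fold change between -2.61 and -1.59). It was kept in 8 of them, and DESeq2 gave no adjusted p. Correcting each library for GC content and exon length took the FDR to 0.0767, and thinning to equal depth to 0.0655. Without WT day 5 replicate 1 the edgeR FDR was 0.31, and without replicate 2 it was 0.0601. Without KO day 5 replicate 1 it was 0.174, and without replicate 2 it was 0.386. Leaving out WT day 0 replicate 1 or 2, which are not part of the comparison, gave 0.0789 and 0.0804. NK cells also make interferon gamma. Their markers, among them *Ncr1*, were near 0 at day 5, with 9 and 6 summed counts in WT and 3 and 5 in the KO-labelled libraries. Of these *Klrb1c* had 5 and 4 counts in WT and 0 and 1 in the KO-labelled libraries. The part of NK cells in the *Ifng* counts was not tested. The CD8 T-cell marker *Cd8a* was called higher in the KO-labelled libraries at day 5 (log2 fold change 0.60, edgeR FDR 0.0155), a call lost without KO day 5 replicate 1 (FDR 0.129) or 2 (FDR 0.126) and with the 4 libraries alone (FDR 0.0593).

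Mean levels of *Il2* and *Il16* were higher in the KO-labelled libraries than in WT at day 5, and neither was called. The log2 fold change of *Il2* was 1.23 (SE 0.49, edgeR FDR 0.272). That of *Il16* was 0.53 (SE 0.13, edgeR FDR 0.0578), and it was called in 3 of 18 alternatives, while the GC content and exon length offset moved it to 0.35 (FDR 0.298). The gamma delta T-cell markers summed to between 514 and 611 CPM in the KO-labelled libraries and to between 321 and 347 CPM in WT, and of the 5 genes *Tcrg-C2* and *Tcrg-C4* were called higher. Without KO day 5 replicate 2 these calls were lost (edgeR FDR 0.166 and 0.0502). *Tcrg-C1* (log2 fold change -0.01, edgeR FDR 0.991) and *Trdc* (-0.50, edgeR FDR 0.442) were not called, and *Sox13* had no count at day 5. Myeloid markers (5 genes) summed to between 52.3 and 73.6 CPM in the KO-labelled libraries and to between 34.8 and 41.7 CPM in WT. Among them *Cd68* was not called (0.76, edgeR FDR 0.207). B-cell markers (5 genes) summed to between 81.1 and 84.45 CPM in the KO-labelled libraries and to between 67.4 and 68.7 CPM in WT. Among them *Cd79b* was not called (0.27, edgeR FDR 0.416). The part of any of these cells in the cytokine differences was not tested.

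*Lta* (0.28, 95% interval -0.19 to 0.75), *Tnf* (-0.17, interval -0.63 to 0.29) and *Il10* (0.12, interval -0.98 to 1.22) were not called between the labels at day 5, with FDR values of 0.627, 0.783 and 0.95 in edgeR. The value of *Lta* rested on the WT pair. Without WT day 5 replicate 1 it was 0.81 (edgeR FDR 0.0241, called), and without replicate 2 it was -0.09 (FDR 0.863).

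None of the 6 tested cytokine genes was called in the genotype by day interaction (edgeR, with 2 at an unadjusted p under 0.05, and 0 by DESeq2), where 0.159% of all genes were called. Besides *Il2*, the largest was *Lta* at 0.60 (SE 0.34, edgeR FDR 0.501), and *Il16* was at 0.59 (SE 0.18, edgeR FDR 0.214). *Ifng* and *Il10* are given no interaction value because both day 0 groups had 3 counts or fewer.

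**Figure D4:**
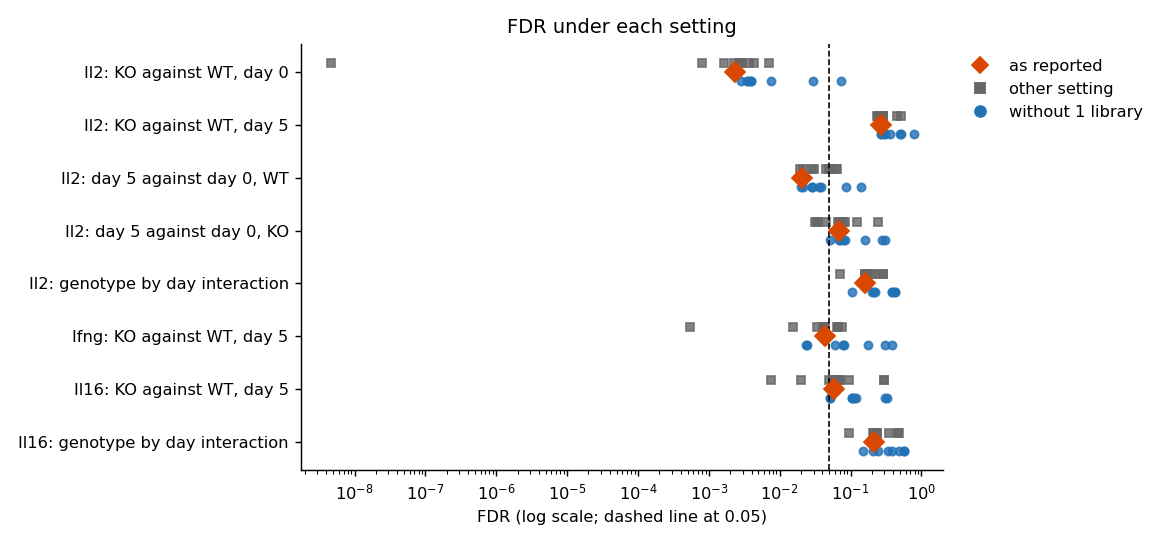
FDR of 8 results on *Il2*, *Ifng* and *Il16* (log axis) as reported (diamonds), under other settings (squares) and without 1 library each (circles), with a dashed line at 0.05. The *Il2* difference at day 0 lies left of the line in 17 of 18 alternatives, and the *Ifng* difference at day 5 lies on both sides of it.

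Transcripts of 4 cytokine genes were barely detected. *Csf2*, which encodes the growth factor GM-CSF (chromosome 11), had 1 and 1 counts in WT and 0 and 1 in the KO-labelled libraries at day 0, and 1 and 0 in WT and 2 and 1 in the KO-labelled libraries at day 5. *Il21*, a growth factor made mostly by helper T cells (chromosome 3), had 2 and 0, then 0 and 1 counts at day 0, and none at day 5. *Il3*, which encodes a growth factor of blood cells (chromosome 11), had 1 count, in WT day 0 replicate 2. A count of 3 over a group corresponds to between 0.175 and 0.306 CPM, and differences under that were not detectable at this depth.

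*Ltb*, which encodes lymphotoxin beta, the membrane partner of lymphotoxin alpha (chromosome 17, 35194439 to 35196320, plus strand), is known as an abundant transcript of resting lymphocytes. It had 9 and 6 counts in WT and 12 and 2 in the KO-labelled libraries at day 0, and 5 and 3 in WT and 2 and 2 in the KO-labelled libraries at day 5. It did not pass the filter, and at day 0 it was at 1.48 ± 0.179 CPM in WT and 0.698 ± 0.468 CPM in the KO-labelled libraries (SD, n = 2 each), whose summed counts were 0.546 of those in WT after scaling (95% counting interval 0.244 to 1.21). Its longest transcript is 61.0% G and C. Of protein-coding genes with 60% or more, 8.60% averaged at least 10 CPM in these libraries, against 40.4% of those between 45% and 50%. The part of base composition in the *Ltb* counts was not tested.

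Genes around the cytokines were taken from lists of receptors, transcription factors, regulators of cytokine mRNA and other cytokines. The lists were chosen with earlier results of these data known, so their counts of calls and medians are descriptions and do not test the lists. The shares of all genes called stand beside them. Between the labels these were 1.80% at day 0 and 1.63% at day 5. In culture they were 48.3% in WT and 50.2% in the KO-labelled libraries, and in the interaction 0.159%. Some of these genes passed the filter on low counts only because of day 5 libraries, in which they were high: *Ccl4*, *Il24*, *Lif*, *Tgfb3* and *Tnfsf11* among the other cytokines, *Il3ra* among the receptors, and *Bhlhe40*, *Jun*, *Jund*, *Maf*, *Prdm1* and *Tbx21* among the transcription factors. Their rises in culture were partly fixed by that filter. *Xcl1*, among the other cytokines, passed only through day 0 libraries, with 48 and 23 counts in the KO-labelled libraries. It had 4 and 3 counts there at day 5, so its fall was partly fixed too. The counts of calls in culture are descriptions for these reasons. Of the 15 genes for receptors of the 10 cytokines, 11 were tested. At day 0, 3 were called higher in the KO-labelled libraries and none lower. *Il2rb*, the beta chain of the interleukin 2 receptor, was at 94.8 and 103 CPM in WT and 228 and 194 CPM in the KO-labelled libraries (log2 fold change 1.10, SE 0.14, edgeR FDR 0.00116). *Ifngr1*, the ligand-binding chain of the interferon gamma receptor, was at 476 and 561 CPM in WT and 1352 and 1127 CPM in the KO-labelled libraries (1.26, SE 0.13, edgeR FDR 0.000279).

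*Il10ra*, the interleukin 10 receptor alpha chain, was at 7.51 and 17.9 CPM in WT and 69.1 and 39.8 CPM in the KO-labelled libraries (2.15, SE 0.33, edgeR FDR 0.0056). For each of these 3 called genes, both KO-labelled libraries lay above both WT libraries, a description that adds no support to the calls. Without WT day 0 replicate 2, the log2 fold change of *Il10ra* was 2.87. Without WT day 0 replicate 1, the edgeR FDR of *Il10ra* was 0.0923 and that of *Il2rb* was 0.0589, while *Ifngr1* was called in 18 of 18 alternatives.

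At day 5, again 3 receptor genes were called higher and none lower: *Il2rb* (314 and 269 CPM in WT, 491 and 528 CPM in the KO-labelled libraries, log2 fold change 0.80), *Il10ra* (39.5 and 36.4 against 103 and 100.4 CPM, 1.42) and *Il21r* (57.5 and 60.0 against 92.0 and 117 CPM, 0.83). *Il21r* encodes the receptor of interleukin 21. Each of these calls was lost when a single library was left out. Without KO day 5 replicate 2, for example, the edgeR FDR was 0.156 for *Il2rb*, 0.195 for *Il10ra* and 0.416 for *Il21r*. The correction for GC content and exon length also ended the calls of *Il10ra* (FDR 0.0713) and *Il21r* (FDR 0.105). In the interaction, no receptor gene was called (4 at an unadjusted p under 0.05, and 1 called by DESeq2).

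Of the receptor genes tested, *Il2ra*, the alpha chain of the interleukin 2 receptor, had the largest change in culture under both labels. It went from 1.79 and 3.17 CPM to 2131 and 1758 CPM in WT and from 7.38 and 3.67 CPM to 1626 and 1981 CPM in the KO-labelled libraries. Its log2 fold changes were 9.64 (SE 0.30, edgeR FDR 1.67e-10) and 8.24 (SE 0.27, FDR 1.78e-10), the second being 8.94 without KO day 0 replicate 1. Among the 11 receptor genes, 4 were called higher and 2 lower in WT, against 6 and 2 in the KO-labelled libraries. *Il2rb* and *Ifngr1* rose by 1.56 and 1.77 on the log2 scale in WT and by 1.27 and 0.81 in the KO-labelled libraries. *Il10ra* rose by 1.61 (2.34 without WT day 0 replicate 2) and 0.88, and *Il3ra* was called in the KO-labelled libraries from 4 and 0 counts to 14 and 11. The *Il10ra* call in the KO-labelled libraries was kept in 12 of 18 alternatives. It was lost with library totals (edgeR FDR 0.0557), with the correction for GC content and exon length (0.119, or 0.123 with the replicate block), and without KO day 0 replicate 2 (0.141 at a log2 fold change of 0.55), KO day 5 replicate 1 (0.0781) or KO day 5 replicate 2 (0.0657). That of *Il3ra* (3.26) was lost without KO day 5 replicate 1 (FDR 0.0648), and its value was 6.60 without KO day 0 replicate 1 and 2.69 without replicate 2.

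Of the 29 other cytokine genes, 11 were tested. At day 0 *Ccl5*, a chemokine that attracts T cells, was at 16.3 and 10.8 CPM in WT and at 68.8 and 122 CPM in the KO-labelled libraries (log2 fold change 2.78, SE 0.41, edgeR FDR 0.004). *Tnfsf14*, which encodes the TNF family ligand LIGHT, had 6 and 2 counts in WT and 74 and 24 in the KO-labelled libraries (2.76, SE 0.54, edgeR FDR 0.0241). Those were the 2 called at day 0, both higher. Without WT day 0 replicate 2, the FDR of *Ccl5* was 0.11 and that of *Tnfsf14* 0.217, and without replicate 1 they were 0.0744 and 0.138. Without KO day 0 replicate 1 that of *Tnfsf14* was 0.0941. The log2 fold change of *Tnfsf14* was 3.54 without WT day 0 replicate 1. None was called at day 5 by the edgeR test used here (5 at an unadjusted p under 0.05, 1 called by DESeq2 and 2 by the edgeR 4 form), and none in the interaction (5 at an unadjusted p under 0.05, and 0 by DESeq2).

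In culture, 9 of these 11 were called higher and none lower in WT, against 7 and 1 in the KO-labelled libraries. *Fasl*, which encodes the death ligand of killer T cells, went from 4.29 and 0.678 CPM to 523 and 428 CPM in WT (log2 fold change 7.47, SE 0.34) and from 3.78 and 3.67 CPM to 462 and 387 CPM in the KO-labelled libraries (6.82, SE 0.31). The WT value was 9.42 without WT day 0 replicate 1 and 6.79 without replicate 2. *Lif*, a cytokine of the interleukin 6 family, went from 0 and 1 counts to 212 and 131 in WT and from 3 and 3 to 97 and 65 in the KO-labelled libraries. The WT counts gave a ratio of 350 with a 95% counting interval of 62.4 to 13850. Over 18 alternatives the WT log2 fold change of *Lif* lay between 7.14 and 10.74.

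*Tnfsf11*, which encodes RANK ligand, rose at least 10.4-fold in WT and *Tgfb3*, a transforming growth factor, at least 9.83-fold, both from no count at day 0. In the KO-labelled libraries *Tgfb3* went from 1 and 5 counts to 25 and 18 (3.31 on the log2 scale, 2.11 without KO day 0 replicate 1 and 5.24 without replicate 2), and *Il24* from 1 and 0 counts to 9 and 22 (49.5-fold, 95% counting interval 8.25 to 2017). *Il24* went from 1 and 0 to 64 and 44 counts in WT (110.1-fold, 95% counting interval 19.4 to 4390). In the KO-labelled libraries its log2 fold change lay between 4.31 and 6.91 over 17 alternatives.

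The list of 30 transcription factors known to act on cytokine genes had 27 tested. None was called at day 0 (edgeR, 3 at an unadjusted p under 0.05, and 0 by DESeq2), and 1 was called at day 5. That was *Rela*, a subunit of NF-kappaB, at 30.0 and 28.9 CPM in WT and 54.5 and 54.7 CPM in the KO-labelled libraries (log2 fold change 0.89, SE 0.15, edgeR FDR 0.0122). Its FDR was 0.156 without KO day 5 replicate 2, 0.1 without KO day 5 replicate 1, 0.0624 without WT day 5 replicate 2 and 0.0688 with the correction for GC content and exon length. In the interaction none was called (3 at an unadjusted p under 0.05, and 0 by DESeq2).

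In culture the list went both ways, with 9 called higher and 9 lower in WT, against 11 and 9 in the KO-labelled libraries. The rises were led by *Bhlhe40*, a repressor of *Il10* in T cells, from 0.537 and 0.678 CPM to 383 and 346 CPM in WT (log2 fold change 9.20) and from 0.858 and 2.20 CPM to 428 and 514 CPM in the KO-labelled libraries (8.46, or 7.74 and 9.06 without KO day 0 replicate 1 or 2). *Irf4*, a factor induced by receptor signals, rose by 4.42 in WT and 3.97 in the KO-labelled libraries on the log2 scale. It was at 0.537 and 2.26 CPM in the WT day 0 pair, and its rise in WT was 3.65 without replicate 1 and 5.69 without replicate 2. *Tbx21* (T-bet, 9.86-fold in WT, 95% counting interval 3.06 to 50.6) and *Maf* (log2 fold change 3.07) were also called higher in WT, and *Jun* (2.30) in the KO-labelled libraries, all under 6 CPM. The call of *Jun* held in 7 of 18 alternatives, and its value was 1.34 without KO day 0 replicate 1 and 3.56 without replicate 2. *Tcf7*, a factor of resting T cells, fell by 2.14 on the log2 scale in the KO-labelled libraries, from 1013 and 1080 CPM to 238 and 236 CPM, and by 2.44 in WT, from 1030 and 1126 CPM to 187 and 210.4 CPM.

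The last list held 13 genes for regulators of cytokine mRNA decay and translation, most of them known to degrade or silence it, with stabilisers such as *Arid5a* and *Elavl1* among them. Of these, 12 were tested, and 7 were called lower and none higher in WT, and 8 lower and 1 higher in the KO-labelled libraries, where 48.3% and 50.2% of all genes were called. The median log2 fold change was -0.79 in WT and -1.02 in the KO-labelled libraries, where the medians of all genes were -0.04 and -0.05. *Rc3h1* (Roquin), which binds and destabilises such mRNA, went from 121 and 112 CPM to 41.1 and 38.8 CPM in WT (log2 fold change -1.54) and from 127 and 146 CPM to 35.5 and 33.9 CPM in the KO-labelled libraries (-1.97).

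The relatives of tristetraprolin, *Zfp36l1* and *Zfp36l2*, fell by 1.71 and 1.46 in WT on the same scale, as did *Zc3h12d* by 1.52. In the KO-labelled libraries *Zfp36l2* fell by 1.94 and *Rc3h2* by 1.67, the latter by 1.013 with the correction for GC content and exon length. *Arid5a*, which stabilises cytokine mRNA, was the gene that rose, by 1.37 in the KO-labelled libraries. It was also the 1 gene of this list called between the labels at day 5, at 159 and 164 CPM in WT and 276 and 298 CPM in the KO-labelled libraries (0.83, SE 0.16, edgeR FDR 0.0198).

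The call of *Arid5a* did not hold without any 1 of 6 libraries: its FDR lay between 0.0533 (without WT day 0 replicate 1) and 0.229 (without KO day 5 replicate 2). With the correction for GC content and exon length its edgeR FDR was 0.151. At day 0 none of this list was called (edgeR, 3 at an unadjusted p under 0.05, and 0 by DESeq2), and none in the interaction (5 at an unadjusted p under 0.05, and 1 by DESeq2).

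**Figure D5:**
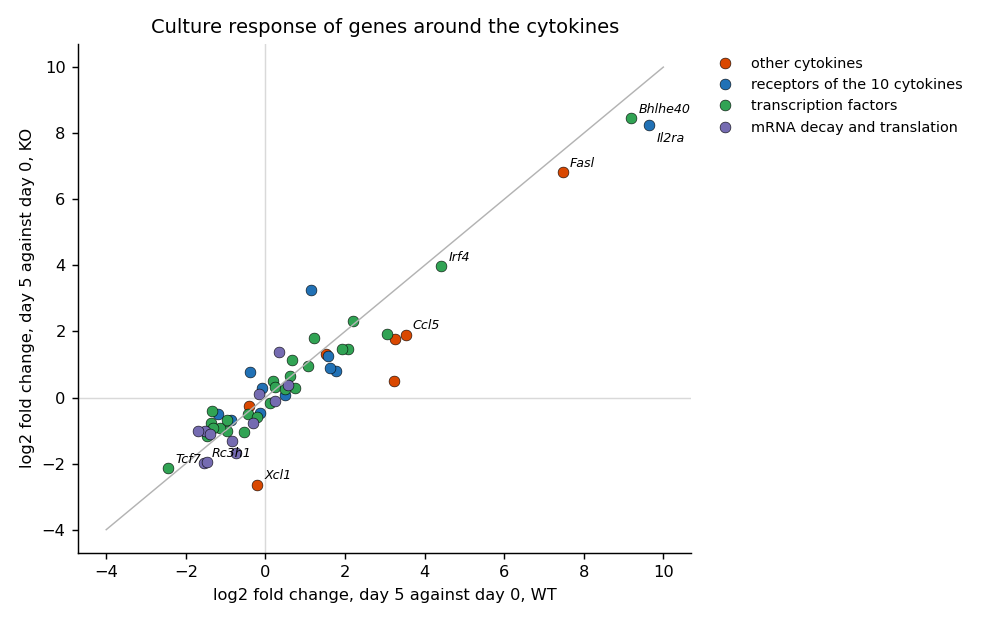
Log2 fold change of day 5 against day 0 in WT (horizontal) and in the KO-labelled libraries (vertical) for 56 tested genes of the 4 lists, coloured by list, with the line of equal change; 5 genes with 3 counts or fewer in a group are left out. *Il2ra* (9.64 and 8.24), *Bhlhe40* (9.20 and 8.46) and *Fasl* (7.47 and 6.82) lie far above the rest.

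Last, tested genes with the most similar pattern over the 8 libraries were found for each tested cytokine gene, as the smallest root mean square difference of centred log2 CPM. The nearest to *Il2* were *Myo1f* (0.55), *Foxp3* (0.57) and *Upk1a* (0.64). The nearest to *Ifng* were *Nov* (0.42), *Klrc1* (0.46) and *Fcmr* (0.53). Unnamed gene models, which are left out here, came closer to *Il2* than *Myo1f* in 1 case. The distances printed for *Il2* and *Ifng* were larger than those printed for the other 4 genes.

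*Lta* was nearest to *Smtnl2* (0.18), *Fam162a* (0.22) and *Prok1* (0.25), and *Tnf* to *Mad2l1* (0.14), *Whsc1* (0.15) and *Ndc80* (0.18). *Il10* was nearest to *Fam57b* (0.12), *Aldoa* (0.13) and *Acot7* (0.13). *Il16* was nearest to *Cnn2* (0.07), *Cnppd1* (0.08) and *Stat5a* (0.09), genes that also fell in culture. The points share 8 libraries dominated by the change between days, and the likeness is a description.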

How the data were processed

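RNA-seq was analysed for 8 libraries of splenic CD8+ T cells, grouped by the genotype and day in the sample titles. The authors deposited raw counts of reads per gene symbol for each library; the submitters' processing notes name HISAT2 2.1.0, HTSeq 0.11.1 and the mouse genome mm10. The annotation and strand setting are not given in the sources used here. Counting set aside 31.8% to 37.4% of records as aligned to several places and 27.5% to 33.6% as outside genes, and these were left out of library sizes.

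The main test was the edgeR 4.0.16 quasi-likelihood test (R 4.3.3) with 1 mean per group over all 8 libraries, TMM scaling, the default filter (minimum count 10) and two-sided p-values adjusted by Benjamini-Hochberg over 12597 genes, after a test on simulated data. CPM used TMM-scaled totals. Alternatives were DESeq2 1.42.0 or its size factors, library totals, no filter, the edgeR 4 form, a fit of the 4 libraries compared, a block for the replicate number, a GC content and exon length correction of each library by loess (span 0.3, 96.9% of tested genes had both), that correction with the block, thinning to 4170126 counts, and leaving out each library. Coordinates are from GENCODE M21 (GRCm38). With 2 libraries per group, precision rests on the spread shared over genes; intervals on counts cover counting error only.

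The 10 genes and all lists were chosen with earlier results of these data known. All 10 were named. Other listed genes were named where called between the labels, or, for culture, as the 4 of a list with the largest change among those called. Genes of like pattern were the nearest 3, without symbols of unnamed gene models.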

Additional observations from a re-analysis of the deposited data

Results flagged for a closer look

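*Il2* moved in opposite directions in culture under the 2 genotype labels. Both WT libraries were higher at day 5 than at day 0 (from 0.179 and 0.452 CPM to 1.76 and 1.45 CPM) and both KO-labelled libraries were lower (from 5.83 and 9.18 CPM to 3.50 and 4.17 CPM). The difference between the responses was -3.29 on the log2 scale, and between -3.99 and -2.74 over 17 alternatives. Its interaction test did not pass the threshold (edgeR FDR 0.161), and it was called in none of the alternatives.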

How the results depend on the processing

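Of 463 alternative values for 26 comparisons of single cytokine genes, 435 kept direction and side of the threshold, 15 lost the call, 8 gained it and 5 changed sign. For 4 of them DESeq2 gave no adjusted p, and only the direction was compared. The values that changed sign were not called in the fit as reported, and 1 of them, *Lta* at day 5, was called without WT day 5 replicate 1 (0.81, FDR 0.0241). They were *Il16* at day 0 (-0.193 to 0.0936 without 1 library each), *Lta* (-0.0930 to 0.811) and *Tnf* (-0.322 to 0.0176) at day 5 likewise, and *Il10* at day 5, -0.0149 at equal depth.

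The 1 cytokine call at day 5 became 2 with no filter and with the edgeR 4 form, 0 with the GC content and exon length offset, alone or with the replicate block, and 0 at equal depth; the count was 0 to 1 without 1 library each, and so was that at day 0. The gene called at day 5 was not always *Ifng*: without WT day 5 replicate 1 it was *Lta*, and by DESeq2 it was *Il16* (FDR 0.00749). Calls over all genes at day 0 (227) were 434 with no filter and 38 to 276 without 1 library each. At day 5 (205) they were 418 with no filter, 350 by DESeq2, 121 with the GC content and exon length offset, 122 with that offset and the replicate block, and 32 to 249 without 1 library each. Interaction calls (20) were 154 with no filter, 144 by DESeq2, 12 with the offset, 37 at equal depth and 0 to 41 without 1 library each. Library totals turned the 10 higher and 10 lower interaction calls into 9 and 15. The cause was not tested.

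Same-numbered libraries correlated at 0.00438 and -0.0165 between labels and at 0.118 and 0.228 between days, and the labels do not say that the numbers pair samples. The replicate block changed no call of a cytokine gene (*Ifng* at day 5, FDR 0.0337). Depth limits *Csf2*, *Il21*, *Il3* and *Ltb*, and day 0 values of *Ifng* and *Il10*.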
